A study of Mus musculus with 2 samples.

Results

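The 10 genes described here are Atf4 and 9 genes that ATF4 switches on, or that make the amino acids and folate-bound carbon units used when amino acids run short. They are a list of named genes, with no threshold on measured values behind it, and are Atf4, Ddit3, Trib3, Chac1, Asns, Psat1, Psph, Phgdh, Shmt2 and Mthfd2. The list was chosen with earlier results of these data known. All 10 were found among the 32245 gene symbols in the files, and all had UMIs (unique molecular identifiers, 1 per captured RNA molecule) in both libraries. The control library came from E13.5 mouse embryos of the genotype Isl1-Cre;R26R-eYFP. The mutant library came from E13.5 embryos of the genotype Isl1-Cre;R26R-eYFP;Pik3caH1047R, in which Cre also switches on an activated form of the catalytic PI3K subunit p110α from the Rosa26 locus. Both genotypes therefore carry Isl1-Cre, which is active in cardiopharyngeal mesoderm and in other Isl1-expressing cells, and the eYFP reporter. In each genotype 3 eYFP-positive embryos were pooled, the tissue above the liver was dissociated with collagenase, and eYFP+ cells were sorted and loaded as 1 library, so embryos are not replicates in these files and differences between the libraries have no replicate check. The intervals given below are 95% intervals for counting error only.

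ATF4 is a bZIP transcription factor whose mRNA is translated more efficiently when the initiation factor eIF2α is phosphorylated, by PERK during endoplasmic reticulum (ER) stress or by GCN2 when amino acids are scarce, and growth signalling through mTORC1 also raises ATF4 protein. ATF4 binds composite C/EBP-ATF sites in its target genes together with C/EBP partners. Its targets include regulators of the stress response itself, and enzymes that make asparagine and serine and feed carbon from serine into the mitochondrial folate cycle, a pathway used by proliferating cells. The mRNA levels measured here do not report ATF4 protein.

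The composite core TGATGNAA was searched on both strands of RefSeq promoter windows of GRCm38.p6, each from 250 bases before to 50 bases after the annotated start, because it is the sequence through which ATF4 acts. A window was given for all 10 genes, and 3 of them, Trib3, Chac1 and Asns, held the core, against 3.97% of 32851 windows in the table. The 28-base stretches around these 3 matches are shown in the direction of transcription, with the match in capitals. Positions of the matches are from the RefSeq starts, which differ from the ends of the GENCODE gene spans given after them: by those spans the Trib3 match lies before the gene and the Asns match inside it.
Trib3, chr2:152344029-152344056, minus strand, match at position 15 from the RefSeq start and read on the opposite strand: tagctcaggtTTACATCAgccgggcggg
Chac1, chr2:119351039-119351066, plus strand, match at -193 and read on the opposite strand: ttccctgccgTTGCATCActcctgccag
Asns, chr6:7693215-7693242, minus strand, match at -23: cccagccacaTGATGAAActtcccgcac
The hypoxia response cores GCGTG and ACGTG were searched in the same way. They were found for 9 and 4 of the 10 genes, against 32.4% and 19.6% of all windows. A gene counted if any of its windows held the core, so shares of genes and of windows are not the same measure. The ER stress response element was found for none of the 10 genes and in 0.119% of all windows. No match overlapped a match of another core, and these matches are letters in a window, not sites shown to be bound.

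By the GENCODE annotation of GRCm38 the genes lie at chr15:80255184-80257541 (Atf4), chr10:127290774-127296288 (Ddit3), chr2:152337422-152344032 (Trib3), chr2:119351229-119354381 (Chac1), chr6:7675169-7693254 (Asns), chr19:15904678-15947337 (Psat1), chr5:129765558-129787449 (Psph), chr3:98313170-98339990 (Phgdh), chr10:127517123-127522444 (Shmt2) and chr6:83305691-83325908 (Mthfd2). Ddit3 overlaps Mars, Psph overlaps Cct6a, Shmt2 overlaps Ndufa4l2 and Psat1 overlaps Gm3329, each on the opposite strand, and whether counting used strand is not given in the sources used here. Phgdh has an annotated pseudogene, Phgdh-ps1, and Mthfd2 a related gene, Mthfd2l. A second Ddit3 identifier overlapping the first had 0 UMIs in both libraries.

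The study's filter keeps cells with a gene number between 2000 and 9000 and under 10% of UMIs from mitochondrial genes. With it 2783 of 4505 control cells and 3489 of 5357 mutant cells remained, with medians of 20412 and 16839 UMIs per cell. Clusters were named from marker genes, and comparison was limited to the 8 classes that reached 50 cells in each library: 146 control and 697 mutant endothelial cell (EC)-like cells, 891 and 845 branchial muscle-like, 953 and 654 mesenchyme-like, 211 and 300 epithelium-like, 193 and 468 neuron-like, 173 and 176 myeloid-like, 54 and 184 cardiomyocyte-like, and 70 and 69 mesothelium-like cells. The tissue label, pharyngeal arch, covers only some of these cells. In the EC-like cells all 16 endothelial markers were raised. Between the libraries 28 cell barcodes were shared, 12 of them among the cells kept. The pools differed in sex: 95.5% of kept control cells had Xist and no Y-linked UMIs (female-like) and 1 cell was male-like, whereas 33.6% of kept mutant cells were female-like and 53.3% male-like, so every comparison of the libraries also compares embryos of different sex.

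In EC-like cells the stress regulators of the group were higher in the mutant library, and the enzymes divided into 3 that were more than 1.5-fold higher and 3 that were not. Levels are UMIs per 1000000 UMIs of the class (CPM), and ratios are log2 of mutant over control CPM. Atf4 was at 104 CPM (93.1 to 116) in control and 222 CPM (214 to 230) in mutant EC-like cells, a log2 ratio of 1.09 (0.93 to 1.26). Ddit3, which encodes the pro-apoptotic factor CHOP and is a direct ATF4 target, was at 16.2 CPM in control and 40.9 CPM in mutant cells, a log2 ratio of 1.34 (0.93 to 1.78). Trib3, a pseudokinase that binds AKT and feeds back on ATF4, had 10 UMIs, 3.11 CPM, in control cells and 388 UMIs, 28.0 CPM, in mutant cells. Its log2 ratio was 3.17 (2.27 to 4.24). Trib3 thus had the highest ratio of the 10 genes in EC-like cells, 8.98-fold, with a control level that rests on few molecules. Chac1, which breaks down glutathione and is induced through ATF4, had 14 control and 190 mutant UMIs, which are 4.36 and 13.7 CPM, with a log2 ratio of 1.65 (0.87 to 2.55).

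Among the enzymes in EC-like cells, Mthfd2, the mitochondrial folate dehydrogenase that is high in embryos and tumours, was at 30.2 CPM in control and 62.5 CPM in mutant cells, a log2 ratio of 1.05 (0.74 to 1.37). Phgdh, which takes glycolytic 3-phosphoglycerate into serine synthesis, was at 27.4 and 49.7 CPM, a log2 ratio of 0.86 (0.54 to 1.20). Asns, asparagine synthetase, was at 25.2 and 44.4 CPM, a log2 ratio of 0.82 (0.48 to 1.17). These 3 enzymes were past 1.5-fold, and the steps next to Phgdh in the same pathway were not. Psat1, the transaminase that follows Phgdh, was at 70.0 and 72.8 CPM, a log2 ratio of 0.06 (-0.15 to 0.27). Psph, the phosphatase that releases serine, was at 19.3 and 14.3 CPM, a log2 ratio of -0.44 whose interval ended just below 0, but the ratio was 0.27 in thinned cells and 0.048 in G1 cells. Shmt2, which moves the carbon unit of serine onto folate in mitochondria, was at 57.6 and 70.7 CPM, a log2 ratio of 0.30 (0.07 to 0.53). So the first enzyme of serine synthesis and the last folate enzyme of the group differed between the libraries by more than the 3 enzymes between them.

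In all, 7 of the 10 genes were more than 1.5-fold higher in mutant EC-like cells and none was more than 1.5-fold lower. Of the 12036 genes with at least 50 UMIs in these cells, 11.8% were that far above control and 12.3% that far below. The median log2 ratio of the 10 was 0.95, and that of all these genes -0.07. Among female-like cells 3 of 8 genes with enough UMIs were that far above and 0 that far below. All genes in that comparison gave 7.49% and 13.3%, and the median of the 8 was 0.38.

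**Figure D1:**
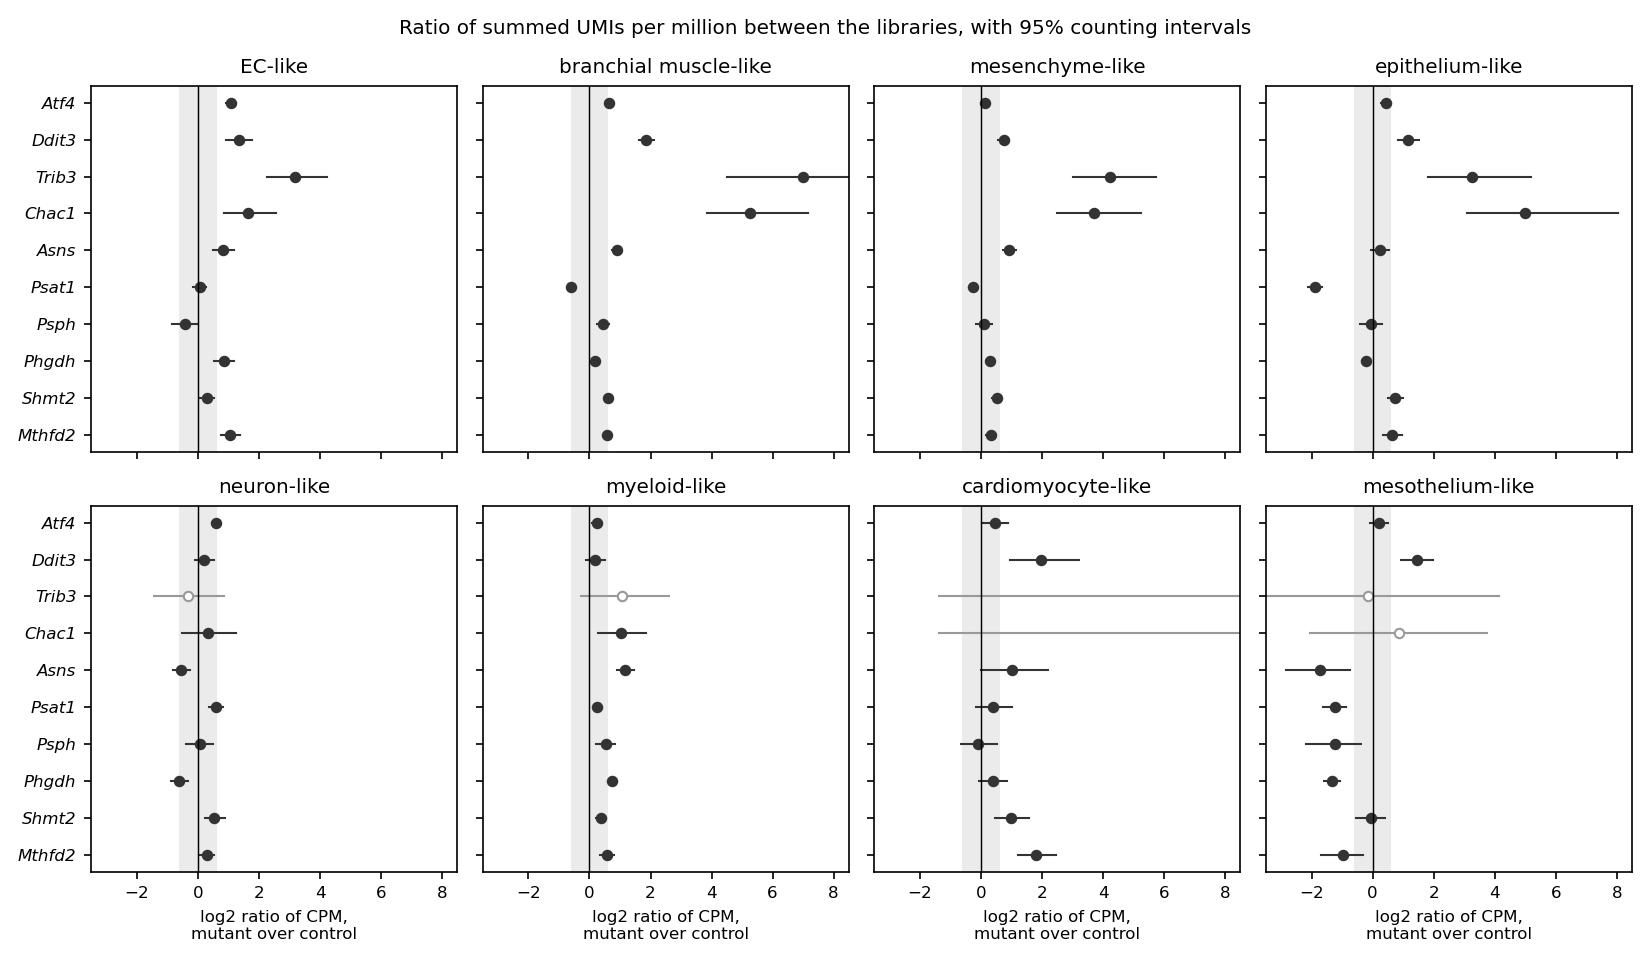
The x axis gives the log2 ratio of CPM, mutant over control, for the 10 genes (rows) in 8 cell classes (panels). Points are ratios, lines 95% counting intervals cut at the panel edge, open grey marks genes with under 50 UMIs, and grey bands 1.5-fold in either direction. Trib3 and Chac1 lie farthest to the right in EC-like, branchial muscle-like, mesenchyme-like and epithelium-like cells, and the mesothelium-like enzymes lie to the left.

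The genes also differed in how many cells held them. Because mutant cells were shallower, cells were thinned to 5000 UMIs, which left 143 control and 665 mutant EC-like cells and 2722 and 3316 cells in all, with 61 and 173 too shallow. Trib3 was then found in 0.699% of control EC-like cells (0.018% to 3.83%) and in 10.2% of mutant ones (8.03% to 12.8%). In mutant neuron-like cells, which lack a raised Trib3 level and whose share includes any free RNA of the library, the share was 0.443% of 451 cells. Without thinning the EC-like shares were 4.79% and 19.8%, and the mutant neuron-like share was 3.85%, at class medians of 16937 UMIs per EC-like and 13739 per neuron-like mutant cell. The mutant EC-like share of Trib3 lay above the neuron-like share by either count.

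Ddit3 was found in 6.99% of thinned control and 15.04% of thinned mutant EC-like cells, and Chac1 in 1.40% and 4.81%. The Chac1 intervals overlapped, at 0.17% to 4.96% and 3.31% to 6.73%. In thinned mutant neuron-like cells the shares were 16.6% for Ddit3 and 3.77% (2.21% to 5.97%) for Chac1. By share, neither gene set mutant EC-like cells apart from mutant neuron-like cells. Control neuron-like cells already held both genes, Ddit3 at 32.6 CPM and Chac1 at 4.30 CPM, against 16.2 and 4.36 CPM in control EC-like cells. The neuron-like shares therefore cannot measure free RNA for these 2 genes. Atf4 was in 43.4% of thinned control and 55.0% of thinned mutant EC-like cells, at thinned levels of 109 and 210 CPM. Its share thus differed less than its level, and the shares do not show how the difference was spread over cells. At full depth, the tenth of mutant EC-like cells with the most Trib3 UMIs (66 cells) held 81.9% of them, and for Chac1 93.2%, for Ddit3 62.1% and for Atf4 37.0%. In the control cells the 14 cells with the most UMIs held all 10 Trib3 and all 14 Chac1 UMIs, so that concentration cannot be compared between the libraries for these genes.

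**Figure D2:**
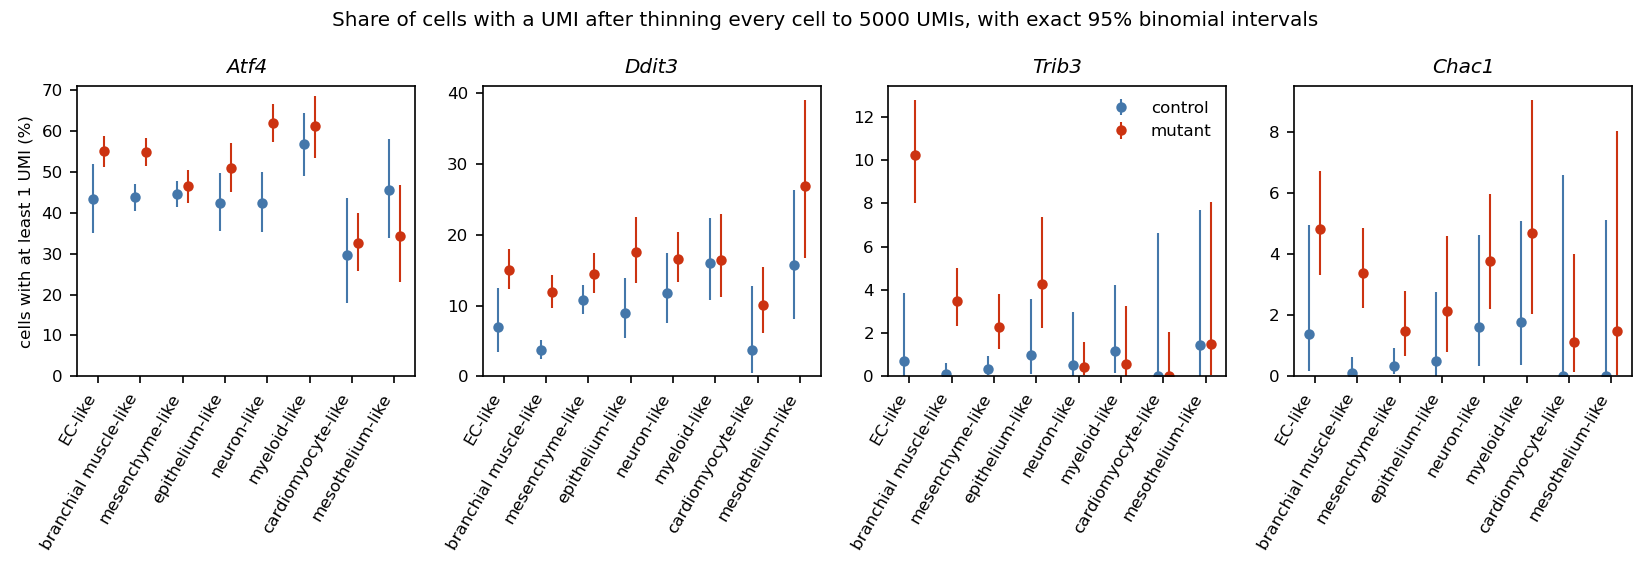
The y axes give the percentage of cells with at least 1 UMI of Atf4, Ddit3, Trib3 or Chac1 after thinning to 5000 UMIs, for 8 classes in the control and mutant libraries. Points are shares and bars exact 95% binomial intervals. The mutant EC-like share of Trib3, 10.2%, stands above all other Trib3 shares, and the mutant neuron-like share of 0.443% is close to the control shares.

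Of the 7 ratios past 1.5-fold in EC-like cells, Asns was the 1 that was not past it after thinning. Asns had 25 UMIs in thinned control cells and 116 in thinned mutant cells and its log2 ratio there was -0.0032 (-0.64 to 0.68), whereas the mean over cells at full depth gave 0.73. Trib3 had a thinned log2 ratio of 3.32 (1.43 to 6.39), with 2 control UMIs. Ddit3, Phgdh and Mthfd2 had thinned ratios of 1.40, 1.48 and 1.42, each with an interval above 0.

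In branchial muscle-like cells, 6 of the 10 genes were more than 1.5-fold higher in the mutant library and 1 more than 1.5-fold lower, against backgrounds of 13.2% and 8.07% of 13489 genes. Their median log2 ratio was 0.62. Among female-like cells 1 of 8 genes was that far above and 1 that far below, against 9.52% and 9.4%, with Trib3 and Chac1 under 50 UMIs. Trib3 was nearly absent from control muscle-like cells, with 1 UMI in 891 cells, and had 107 UMIs in 845 mutant cells, a log2 ratio of 7.00 (4.49 to 12.3). Chac1 had 4 and 127 UMIs, a log2 ratio of 5.25 (3.86 to 7.15). Ddit3 was at 7.49 CPM in control and 27.2 CPM in mutant cells, a log2 ratio of 1.86 (1.61 to 2.11). Trib3, Chac1 and Ddit3 thus had the 3 largest ratios of the group in muscle-like cells, as in EC-like cells.

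Among the other genes of muscle-like cells, Asns was at 30.7 and 56.7 CPM, a log2 ratio of 0.89 (0.75 to 1.02). Atf4 was at 125 and 195 CPM, a log2 ratio of 0.64 (0.57 to 0.71). Shmt2 was at 68.3 and 103 CPM, a log2 ratio of 0.59, which lies at the 1.5-fold limit of 0.585. Mthfd2 lay just under that limit at 0.56 (0.46 to 0.66). Psat1 went the other way, with 165 CPM in control and 109 CPM in mutant muscle-like cells, a log2 ratio of -0.59 (-0.67 to -0.51). Phgdh, the enzyme before Psat1, was at 225 and 258 CPM, a log2 ratio of 0.19 (0.14 to 0.25), and Psph, the enzyme after it, at 16.2 and 21.9 CPM. The serine enzymes of muscle-like cells therefore did not move together.

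The 3 muscle-like clusters differed. In the cluster led by Myh3, Mylpf and Mymk (188 control and 134 mutant cells), genes of differentiating myocytes that fuse, the median log2 ratio of the 10 was 1.45, whereas in the largest cluster, led by Msc, Myf5 and Pax7, it was 0.49. The third, led by Lama2 and Pax7, had a median of 0.70. In the Myh3 cluster Ddit3 was at 5.73 CPM in control and 65.4 CPM in mutant cells, a log2 ratio of 3.51 (2.89 to 4.20). Mthfd2 was at 17.5 and 71.5 CPM there, a log2 ratio of 2.03 (1.64 to 2.44), and Phgdh at 27.9 and 85.6 CPM, a log2 ratio of 1.62 (1.29 to 1.95). Both enzymes were low in control cells of this cluster, and in mutant cells they reached a level close to that of Mthfd2 in the Msc cluster, 97.3 CPM, but below that of Phgdh there, 300.3 CPM. No test of the difference between clusters was possible with 1 library per genotype.

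In mesenchyme-like cells fewer of the genes were past 1.5-fold. The count more than 1.5-fold higher was 4 of 10 and none was more than 1.5-fold lower, against 10.9% and 8.88% of 13832 genes, with a median log2 ratio of 0.42. Among female-like cells 1 of 8 was above and 1 below, against 10.9% and 11%, again without Trib3 and Chac1. Trib3 had 6 UMIs in control and 64 in mutant cells, a log2 ratio of 4.22 (3.02 to 5.72), and Chac1 6 and 45, a log2 ratio of 3.71 (2.48 to 5.23). Asns was at 16.6 and 31.7 CPM, a log2 ratio of 0.93 (0.70 to 1.15), and Ddit3 at 24.1 and 40.2 CPM, a log2 ratio of 0.74 (0.55 to 0.93). Atf4 itself was nearly equal, at 134 CPM in control and 146 CPM in mutant cells, a log2 ratio of 0.13 (0.04 to 0.22). Trib3, Chac1, Asns and Ddit3 thus differed with little difference in Atf4 mRNA, and the other 5 genes were not past 1.5-fold.

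Of the mesenchyme-like clusters, the one led by Twist1, Prrx1 and Lum (610 control and 597 mutant cells) had a median of 0.58, and the one led by Adh1 and Wnt2 (343 and 57 cells) a median of -0.12. That second cluster supplied 343 of 953 control but only 57 of 654 mutant cells. Psat1 in the first was at 37.8 and 53.7 CPM, a log2 ratio of 0.51, and in the second at 102 and 64.9 CPM, a log2 ratio of -0.65, while over both it was at 66.0 and 55.2 CPM, a log2 ratio of -0.26 (-0.40 to -0.12). The direction of Psat1 in mesenchyme-like cells as a whole therefore differed from that in its larger cluster. Over the class 16 mesenchyme markers summed to 7850 CPM in control and 4008 CPM in mutant cells. In the same cells 9 smooth muscle markers summed to 387 and 1177 CPM, and the part of these differences was not tested.

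In epithelium-like cells 5 of 10 genes were more than 1.5-fold higher and 1 more than 1.5-fold lower, against 8.49% and 9.34% of 11654 genes, and the median log2 ratio was 0.54. Among female-like cells 1 of 8 was above and 1 below, against 6.07% and 12.9%, again without Trib3 and Chac1. Ddit3 was at 21.6 and 48.8 CPM, a log2 ratio of 1.17 (0.82 to 1.54). Trib3 had 4 and 50 UMIs, a log2 ratio of 3.25 (1.80 to 5.18). Chac1 had 2 and 83 UMIs, a log2 ratio of 4.98 (3.08 to 8.05), but 55 of the 83 lay in a single mutant cell of 17810 UMIs, and without that cell the log2 ratio was 3.42 with a lower bound of 1.43. Shmt2, at 49.4 and 83.1 CPM, and Mthfd2, at 32.2 and 50.1 CPM, had log2 ratios of 0.75 and 0.64. Psat1 was at 155 CPM in control and 41.7 CPM in mutant epithelium-like cells, a log2 ratio of -1.89 (-2.12 to -1.67) and the lowest of the 10 genes in any class. Markers of other classes differed as well: 9 smooth muscle markers summed to 86.5 CPM in control and 593 CPM in mutant epithelium-like cells and 16 mesenchyme markers to 377 and 162 CPM, and their part in the Psat1 difference was not tested.

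Neuron-like cells lacked the raised Trib3 level. Trib3 had 12 and 19 UMIs, 3.03 and 2.44 CPM, a log2 ratio of -0.31 (-1.43 to 0.86). Chac1 was at 4.30 and 5.40 CPM, a log2 ratio of 0.33 (-0.51 to 1.23), and Ddit3 at 32.6 and 37.7 CPM, a log2 ratio of 0.21 (-0.10 to 0.52). These intervals at full depth do not include the EC-like ratios of 3.17, 1.65 and 1.34. The EC-like interval of Chac1, 0.87 to 2.55, nevertheless overlapped the neuron-like one, whereas the intervals of Trib3 and of Ddit3 did not overlap. After thinning, Chac1 had 3 control and 20 mutant UMIs, a log2 ratio of 1.46 (-0.29 to 3.85), an interval that does include 1.65. Atf4 was nevertheless higher, at 150 and 226 CPM, a log2 ratio of 0.59 (0.46 to 0.73), as was Psat1, at 47.3 and 71.2 CPM, a log2 ratio of 0.59 (0.35 to 0.84). Asns and Phgdh were lower, at 47.5 and 32.5 CPM and at 48.3 and 31.7 CPM, with log2 ratios of -0.55 (-0.83 to -0.27) and -0.60 (-0.88 to -0.32). The Phgdh ratio was 0.26 without integration and 0.0030 with classes from marker counts. Markers of other classes differed in these cells, with 16 mesenchyme markers at 553 and 59.0 CPM and 9 neural crest and Schwann markers at 546 and 161 CPM, and their part was not tested. Of the 9 genes with enough UMIs, 2 were more than 1.5-fold higher and 1 more than 1.5-fold lower, against 5.66% and 15.3% of 12126 genes, with a median of 0.28.

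Myeloid-like cells, led by Ccl4, Mpo and C1q genes, had 3 of 9 genes more than 1.5-fold higher and none that far below, against 8.6% and 17.0% of 10598 genes, with a median of 0.53. Asns was at 32.8 CPM in control and 73.6 CPM in mutant cells, a log2 ratio of 1.17 (0.89 to 1.45), the highest Asns ratio of the 8 classes. Phgdh was at 163 and 275 CPM, a log2 ratio of 0.75 (0.62 to 0.88), and Chac1 at 4.56 and 9.40 CPM, a log2 ratio of 1.04 (0.27 to 1.86). Atf4 and Ddit3 had log2 ratios of 0.24 and 0.19, so in these cells Asns and Phgdh differed more than Atf4 and Ddit3. The Asns difference was found in cycling cells, at 40.6 and 83.4 CPM: among G1 cells, 37.9% of thinned control and 21.8% of thinned mutant cells, Asns had 17 and 5 UMIs, a log2 ratio of -0.79, and Mthfd2 one of -0.48. Globin genes took 0.358% of UMIs in control and 1.46% in mutant myeloid-like cells. The 11 myeloid markers themselves summed to 6309 CPM in control and 2450 CPM in mutant cells, and 10 erythroid markers to 3676 and 14069 CPM. The part of these differences in the ratios of the group was not tested.

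In cardiomyocyte-like cells, with only 54 control cells, 4 of 8 genes were more than 1.5-fold higher and none that far below, against 11.8% and 16% of 7145 genes, with a median of 0.72. Ddit3 had 8 UMIs in control and 117 in mutant cells, a log2 ratio of 1.96 (0.94 to 3.21). Mthfd2 was at 28.9 and 100.3 CPM, a log2 ratio of 1.80 (1.21 to 2.45), the highest Mthfd2 ratio of any class. Shmt2, the enzyme before it, was at 35.8 and 71.4 CPM, a log2 ratio of 1.00 (0.45 to 1.59), and Asns at 10.4 and 20.9 CPM, a log2 ratio of 1.01 with an interval that began just above 0. These 4 genes were the ones past 1.5-fold. Trib3 and Chac1 were at 0 in control and at 7 UMIs each in mutant cells, which this depth cannot separate, since 3 control counts would be 3.46 CPM against 2.15 CPM in the mutant cells.

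In mesothelium-like cells 5 of the 6 enzymes were more than 1.5-fold lower in the mutant library. Of 8 genes with enough UMIs, 1 was more than 1.5-fold higher and 5 more than 1.5-fold lower, against 19.9% and 12.5% of 8520 genes, with a median log2 ratio of -1.11. Asns was at 27.6 CPM in control and, with 10 UMIs, 8.38 CPM in mutant cells, a log2 ratio of -1.72 (-2.85 to -0.74). Phgdh was at 283 and 113 CPM, a log2 ratio of -1.32 (-1.60 to -1.05), Psat1 at 141 and 59.5 CPM, a log2 ratio of -1.24 (-1.64 to -0.87), and Psph at 27.6 and 11.7 CPM, a log2 ratio of -1.23 (-2.19 to -0.38). All 3 steps of serine synthesis were therefore lower here, and Mthfd2 was too, at 39.6 and 20.1 CPM, while Shmt2 had a log2 ratio of -0.06 (-0.54 to 0.40). Ddit3 was the 1 of these 8 genes past 1.5-fold upward, at 24.4 and 66.2 CPM, a log2 ratio of 1.44 (0.92 to 1.97). The class had a median of 28114 UMIs per control cell and 14430 per mutant cell, and 51.4% and 73.1% of its thinned cells were scored as G1. In G1 cells alone the median of the group was 0.23, but it rested on 5 genes with enough UMIs in place of 8. The 2 medians are therefore over different sets of genes, and their change of direction cannot be read as a turn of the enzymes. Cardiomyocyte markers summed to 482 and 1350 CPM and smooth muscle markers to 127 and 571 CPM in the class, and their part was not tested.

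Over the 8 classes the control levels of the group had their own pattern. Phgdh ranged from 27.4 CPM in EC-like to 283 CPM in mesothelium-like control cells, with 48.3 CPM in neuron-like, 55.4 in cardiomyocyte-like, 104 in mesenchyme-like, 163 in myeloid-like, 225 in muscle-like and 226 in epithelium-like cells, the last 2 with overlapping intervals. Atf4 varied far less, from 67.0 CPM in cardiomyocyte-like to 171 CPM in myeloid-like control cells. The classes with the lowest control Phgdh, EC-like, neuron-like and cardiomyocyte-like, had log2 ratios of 0.86, -0.60 and 0.38, of which the neuron-like value was 0.26 without integration.

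Levels in the mutant library differed between female-like and male-like cells. With 1 male-like control cell, the difference between the libraries could be read in female-like cells only. Male-like and female-like mutant cells come from different embryos of the pool. In EC-like cells Trib3 was at 3.38 CPM in female-like control, 6.28 CPM in female-like mutant and 41.2 CPM in male-like mutant cells. Between female-like cells of the 2 libraries its log2 ratio was 0.89 (-0.18 to 2.09), and between male-like and female-like mutant cells 2.71 (2.17 to 3.30). The high Trib3 level of mutant EC-like cells was therefore found mainly in the male-like cells. Ddit3 was at 16.6, 24.3 and 50.6 CPM in the same order, Chac1 at 4.05, 6.49 and 17.7 CPM, and Asns at 25.7, 29.5 and 55.9 CPM.

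Phgdh did not follow that order. In EC-like cells it was at 26.7, 53.2 and 44.8 CPM, so that it was as high in female-like as in male-like mutant cells, with a log2 ratio of 0.99 (0.63 to 1.38) between female-like cells of the libraries. Atf4 and Mthfd2 followed the order and were also higher in female-like mutant than in control cells. Atf4 was at 104, 181 and 252 CPM, with a female-like ratio of 0.80 (0.62 to 1.00), and Mthfd2 at 30.7, 48.0 and 72.1 CPM, with a female-like ratio of 0.64 (0.29 to 1.01). These 3 genes were past 1.5-fold among female-like cells, and 3 of 8 tested compare with 7.49% of all genes in that comparison. Between male-like and female-like mutant EC-like cells 5 of 10 genes were past 1.5-fold upward, against 6.14% of all genes. Sex and embryo cannot be told apart in a pool of 3 embryos.

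The same order held for the stress regulators in muscle-like cells. There Trib3 had 1 UMI in female-like control, 6 in female-like mutant and 92 in male-like mutant cells, or 0.0432, 0.834 and 8.63 CPM. Chac1 was at 0.173, 3.20 and 9.19 CPM, and Ddit3 at 7.52, 17.9 and 34.0 CPM, so that in muscle-like cells both were higher in female-like mutant than in control cells, with log2 ratios of 4.21 (2.66 to 6.20) and 1.25 (0.91 to 1.59). In epithelium-like cells Chac1 had 2 UMIs in female-like control, 2 in female-like mutant and 81 in male-like mutant cells, and in mesenchyme-like cells 6, 0 and 38. Of the 81 epithelium-like UMIs, 55 lay in 1 cell. In neuron-like cells Trib3 was at 1.96 and 2.19 CPM and Atf4 at 224.6 and 226 CPM in female-like and male-like mutant cells, whereas Shmt2 was at 31.1 and 47.8 CPM, a log2 ratio of male-like over female-like cells of 0.62 (0.26 to 0.98), and Psat1 at 62.1 and 87.5 CPM, a ratio of 0.49 (0.23 to 0.75). Psat1 in epithelium-like cells was low in mutant cells of both sexes, at 155 CPM in female-like control, 36.3 CPM in female-like mutant and 46.8 CPM in male-like mutant cells.

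**Figure D3:**
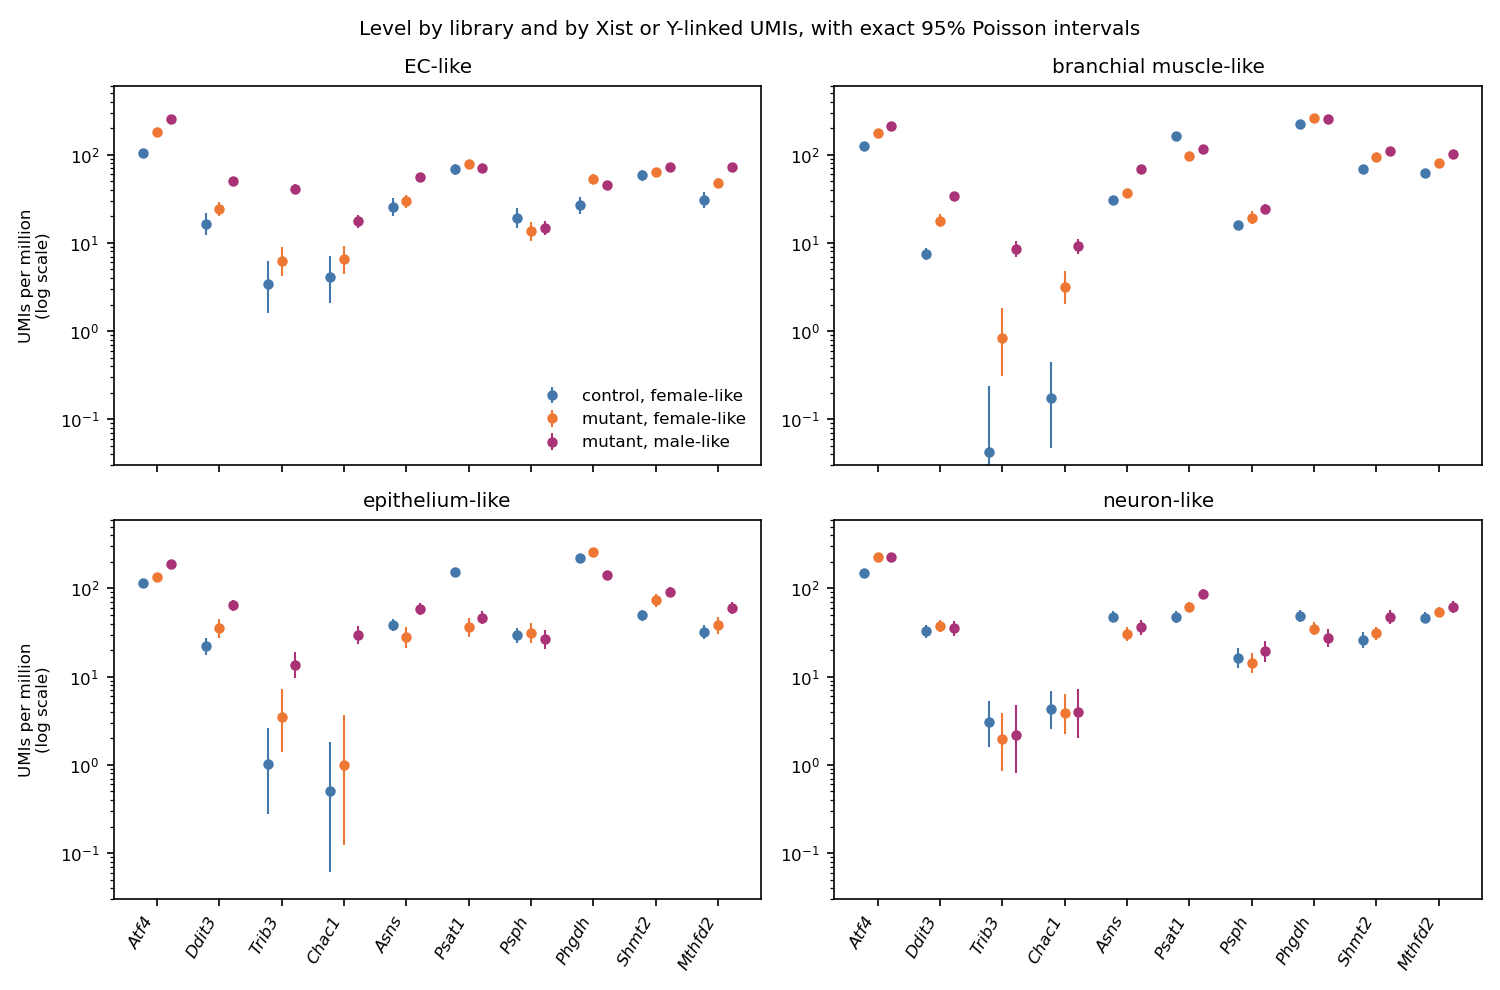
The y axes give UMIs per 1000000 on a log scale for the 10 genes in female-like control, female-like mutant and male-like mutant cells of 4 classes, with exact 95% Poisson intervals. In EC-like cells Trib3 steps from 3.38 to 6.28 to 41.2 CPM, while Phgdh is at 53.2 and 44.8 CPM in the mutant cells. In neuron-like cells the 3 Trib3 values lie within each other's intervals.

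Within each library levels were also read by cell cycle phase. Cells scored as S or G2/M are called cycling here. In control EC-like cells Mthfd2 was at 12.1 CPM in G1 and 40.6 CPM in cycling cells, Phgdh at 13 and 35.2 CPM, and Psat1 at 41.5 and 86.6 CPM, with log2 ratios of cycling over G1 cells of 1.75 (0.92 to 2.68), 1.44 (0.62 to 2.35) and 1.06 (0.59 to 1.55). Shmt2 was at 41.5 and 66.5 CPM, a log2 ratio of 0.68 (0.20 to 1.19). These enzymes were thus higher in cycling control cells. Psph had a ratio of 0.58 (-0.25 to 1.48) in control and -0.14 (-0.55 to 0.29) in mutant cells, with both intervals including 0. Ddit3 was lower in them, at 26.8 CPM in G1 and 10.3 CPM in cycling control cells.

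In mutant EC-like cells the gap was smaller for Mthfd2. It was also smaller for Phgdh, but the Phgdh intervals of the libraries overlapped. The G1 level of both genes was higher than in control cells, where it rested on 14 UMIs of Mthfd2 and 15 of Phgdh. Mthfd2 was at 55.1 CPM in G1 and 68.7 CPM in cycling mutant cells, a log2 ratio of 0.32 (0.12 to 0.52), and Phgdh at 40.9 and 56.3 CPM, a log2 ratio of 0.46 (0.23 to 0.70). Trib3 was at 42.1 CPM in G1 and 18.1 CPM in cycling mutant cells, and Chac1 at 17.7 and 11.1 CPM, so both were higher in G1 cells. The share of thinned cells scored as G1 was 44.8% in control and 51.6% in mutant EC-like cells. Muscle-like cells had the same arrangement: Mthfd2 was at 19.1 and 78.3 CPM in control and at 68.7 and 99.8 CPM in mutant cells, in G1 and cycling cells, and Phgdh at 78.5 and 275.8 CPM and at 133 and 298 CPM. Asns changed its order in muscle-like cells, from 21.3 and 34.0 CPM in control to 75.0 and 50.6 CPM in mutant cells. Among G1 cells alone the median log2 ratio of the group between the libraries was 1.35 over 10 genes in EC-like cells. It was 1.02 over 9 genes in muscle-like cells.

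**Figure D4:**
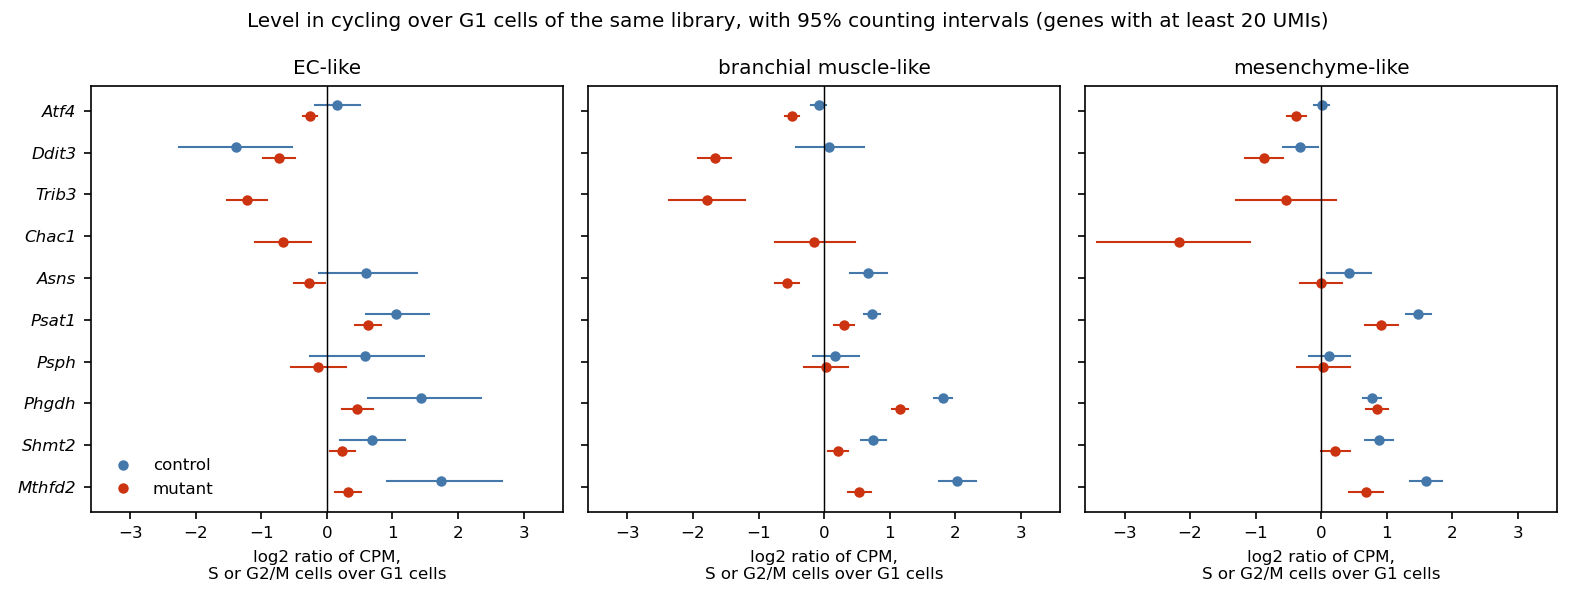
The x axis gives the log2 ratio of CPM in S or G2/M cells over G1 cells within the control and the mutant library, for the 10 genes in 3 classes, with 95% counting intervals and genes with under 20 UMIs left out. Control Mthfd2 lies at 1.75 in EC-like and 2.03 in muscle-like cells and mutant Mthfd2 at 0.32 and 0.54, and mutant Trib3 and Ddit3 lie left of 0 in all 3 panels.

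Genes around the 10 in the pathway were read from lists in EC-like cells, with the same limit of 50 UMIs. Of all genes in these cells 11.8% were more than 1.5-fold higher and 12.3% that far below. Upstream, none of the 10 eIF2α kinases, phosphatase parts and eIF2 subunits was past 1.5-fold in either direction, with a median log2 ratio of -0.08. Eif2ak3, which encodes PERK, was at 26.1 and 30.8 CPM (0.24, -0.10 to 0.59), and Eif2s1, which encodes eIF2α, at 169 and 184 CPM. Eif2ak4, which encodes GCN2, was at 32.99 and 25.4 CPM (-0.38, -0.70 to -0.05), and Eif2ak1, the heme-regulated kinase, at 38.0 and 27.7 CPM. These are mRNA levels of kinases that are controlled by their activity.

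Of 13 bZIP partners and other stress factors, 3 were more than 1.5-fold higher and 1 that far below, against 11.8% and 12.3% of all genes. Their median was 0.37. Atf3, a factor induced by ATF4 and by many other stresses, was at 55.7 and 155 CPM (1.48, 1.26 to 1.70), and Cebpb, an ATF4 partner, at 26.1 and 49.3 CPM (0.91, 0.59 to 1.26). Maf was at 35.8 and 12.5 CPM (-1.52), and Nupr1, with 11 and 54 UMIs, had a ratio of 0.18 (-0.77 to 1.27). Of 18 other ATF4 targets and stress outputs, 12 were more than 1.5-fold higher and 1 that far below, with a median of 1.32. Vegfa and Ero1l in this list are also among the HIF targets read below, and Nupr1, Cars and Cth are in other lists. Gdf15, a secreted stress hormone, had 1 UMI in control and 105 in mutant cells (4.60, 2.09 to 9.92), and Ero1l, the ER oxidase, which is also a HIF target, was at 35.5 and 312 CPM (3.13, 2.87 to 3.42). Avil, at 14.6 and 3.82 CPM (-1.94), and Tnfrsf10b, at 18.4 and 18.0 CPM (-0.03), had the lowest ratios of that list.

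The amino acid genes outside the 10 had medians near 0. Their counts stand beside 11.8% of all genes more than 1.5-fold higher and 12.3% that far below. Of 13 amino acid transporters 1 was more than 1.5-fold higher and 2 that far below, with a median of 0.03. Slc38a4 was at 16.2 and 46.8 CPM (1.53, 1.12 to 1.97) and Slc1a4 at 10.3 and 15.1 CPM (0.55), whereas Slc43a2 was at 31.1 and 15.6 CPM (-0.99) and Slc6a6, the taurine transporter, at 134 and 85.6 CPM (-0.64). Of 20 cytosolic aminoacyl-tRNA synthetases 2 were more than 1.5-fold higher, Cars at 27.7 and 42.5 CPM (0.62) and Sars at 97.7 and 148 CPM (0.60), and the median was 0.05, with Farsa at -0.32 and Mars at -0.27. The synthetases, many of which are ATF4 targets, thus lay near the median of all genes.

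Of 21 other serine, glycine and folate enzymes 2 were more than 1.5-fold higher, against 11.8% of all genes, with a median of -0.09. The 2 make up no larger a share than among all genes. They were Aldh1l2, with 1 and 55 UMIs (3.67, 1.13 to 9.0), and Mthfd1l, at 41.4 and 73.9 CPM (0.84, 0.57 to 1.11). The cytosolic enzyme Mthfd1 was at 39.5 and 26.4 CPM (-0.58) and Sfxn3, a mitochondrial serine carrier, at 17.4 and 12.0 CPM (-0.53). Of 15 genes of other amino acid synthesis 3 were that far above and 2 that far below, against 11.8% and 12.3%, with a median of 0.17. Bcat1, a branched-chain transaminase, was at 5.91 and 13.8 CPM (1.23) and Ass1, which makes argininosuccinate, at 28.6 and 54.8 CPM (0.94), against Glul, glutamine synthetase, at 99.9 and 48.9 CPM (-1.03) and Prodh, a proline-degrading enzyme, at 19.3 and 12.4 CPM (-0.64).

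Programmes that can accompany the group differed too. Their lists were chosen with earlier results of these data known. The study had already reported several of the HIF target and ER chaperone genes as higher in mutant ECs. The counts below are therefore descriptions and not an independent check. Of all genes in EC-like cells 11.8% were more than 1.5-fold higher and 12.3% that far below. Of 19 ER chaperones and XBP1 or ATF6 targets 13 were more than 1.5-fold higher in mutant EC-like cells, with a median of 0.76, from Sec61b at 441 and 560 CPM (0.34) and Canx at 357 and 463 CPM (0.38) to Creld2 at 48.2 and 127 CPM (1.40) and Derl3 with 0 and 102 UMIs. All 20 HIF targets listed were more than 1.5-fold higher, with a median of 2.22, from Mxi1 at 29.9 and 66.6 CPM (1.16) and Kdm3a at 39.2 and 92.0 CPM (1.23) to Adm at 8.40 and 202 CPM (4.58) and Bnip3 at 10.6 and 257 CPM (4.60). Of 16 dissociation genes 4 were more than 1.5-fold higher, with log2 ratios from -0.40 (Fosb) to 5.13 (Hspa1b) and a median of 0.13. Their summed level was 3008 CPM in control and 4162 CPM in mutant EC-like cells, Hspa1a and Hspa1b alone being at 19.0 and 527 CPM and at 13.7 and 479 CPM, while Dusp1 was at -0.35. The ER chaperone and HIF lists were higher in the same cells as the 10 genes. Among the dissociation genes 4 of 16 were past 1.5-fold upward and none downward, against 11.8% and 12.3% of all genes. The part of hypoxia, ER stress or handling in these levels was not tested.

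**Figure D5:**
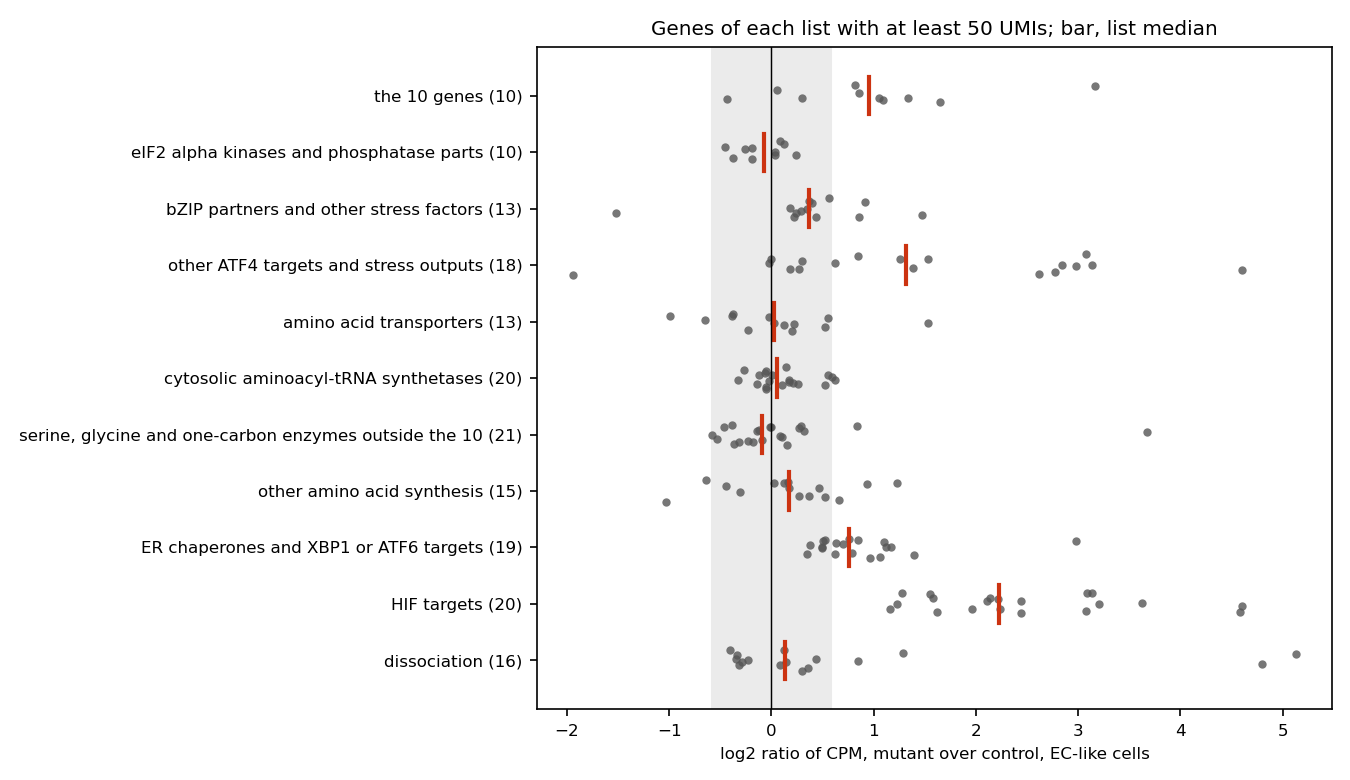
Each point is a gene of a list with at least 50 UMIs in EC-like cells, placed on the x axis by its log2 ratio of CPM, mutant over control, with numbers of genes in parentheses, the grey band 1.5-fold and the bars list medians. The medians of the 10 genes (0.95), other ATF4 targets (1.32), ER chaperones (0.76) and HIF targets (2.22) lie to the right of the band, and those of transporters (0.03), synthetases (0.05) and other serine, glycine and folate enzymes (-0.09) at 0. Vegfa and Ero1l are in the lists of both other ATF4 targets and HIF targets.

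The HIF targets were read in the other classes too. The HIF median was 1.26 in neuron-like cells, where the median of the group was 0.28. There 2 of 9 genes were more than 1.5-fold higher and 1 that far below, against 5.66% and 15.3% of all genes. In mesothelium-like cells it was 2.16, where the median of the 10 was -1.11. In muscle-like, mesenchyme-like and epithelium-like cells the HIF median was 2.02, 2.19 and 2.10. It was 1.24 in cardiomyocyte-like and 0.69 in myeloid-like cells. In myeloid-like cells 10 of 18 HIF targets were more than 1.5-fold higher and 2 that far below, against 8.6% and 17.0% of all genes. The ER chaperone median was 0.76 in EC-like, 0.60 in muscle-like and 0.41 in neuron-like cells and between -0.25 and 0.12 in the other classes. The list of other ATF4 targets shares Vegfa and Ero1l with the HIF list. Its medians were 1.32 in EC-like, 1.40 in muscle-like, 0.97 in epithelium-like, 0.35 in neuron-like and 0.34 in mesenchyme-like cells. They were -0.03 in myeloid-like, -0.07 in cardiomyocyte-like and 0.25 in mesothelium-like cells.

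RNA of other cells can enter droplets, and markers of other classes were read beside Trib3. In mutant muscle-like cells the 16 endothelial markers summed to 61.6 CPM against 7008 CPM in mutant EC-like cells, and Trib3 to 5.46 CPM against 28.0 CPM. Hepatoblast-like cells were found in the mutant library only (47 cells), and 9 hepatoblast markers summed to 2.80 CPM in control and 24.6 CPM in mutant EC-like cells. Those hepatoblast-like cells held Trib3 at 4.78 CPM and Chac1 at 2.12 CPM, below the mutant EC-like levels, and Phgdh at 700 CPM, above them. Neural crest and Schwann-like cells had Trib3 at 0 CPM in 53 control and 11.7 CPM in 24 mutant cells, and smooth muscle-like cells at 0 in both.

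The genes whose levels over the 16 class and library sums were most like the mean of the 10 were Sdf2l1, an ER chaperone partner (Pearson r = 0.86), Eif3c, an initiation factor subunit (0.83), Gtpbp4 (0.80), Hspa1b (0.79) and Nars, asparaginyl-tRNA synthetase (0.79), of 4365 genes considered. Of the members, Asns followed that mean most closely (0.83) and Psph least (0.21), with Psat1 at 0.34 and Phgdh at 0.44. Each member is itself part of that mean, so the member values cannot be compared with those of the other genes. These correlations are descriptions over 16 sums that share 2 libraries. The mean level of the group was highest in mutant myeloid-like and lowest in control cardiomyocyte-like cells.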

How the data were processed

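Sorted eYFP+ cells of E13.5 mouse embryos were profiled by 10x Genomics 5′ single-cell sequencing, with 1 library of 3 pooled embryos per genotype. Per the labels, Cell Ranger 7.1.0 and the mm10 (GRCm38) build were used. The files deposited by the authors hold raw UMI counts for each gene and cell. The annotation release, the use of intronic reads and the use of strand are not given in the sources used here. The study's filter kept 2783 and 3489 cells, with 63153191 and 69717583 UMIs, which is 1 control cell more than the study's text gives.

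Integration by canonical correlation analysis was run in Seurat 5.3.0 under R 4.3.3, on 2000 variable genes that left out the 10 genes and all listed genes, with 30 components and 20 neighbours. Resolution 0.3, the lowest to give at least the study's number of clusters, gave 16. A cluster was called X-like where at least 3 markers were raised, and names are rebuilt, so differences from the study may come from them. Scrublet (scanpy 1.11.5) called 0 control and 1 mutant cells, so its caller did not work and doublets were kept, and in an alternative the highest-scoring cells were removed, 0.8% per 1000 deposited cells (73 and 123 of the kept cells).

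The UMIs of all cells of a class were added up in each library and given per 1000000 (CPM). Ratios have conditional exact binomial intervals of 95%, shares Clopper-Pearson intervals and CPM exact Poisson intervals, all for counting error only. With 1 library per genotype there is no test, so calls mean past 1.5-fold among genes with at least 50 UMIs over both libraries, and a gene at 0 entered medians at a floor of 3 counts. The interval and count steps were tested on simulated data. Sex classes used Xist and 4 Y-linked genes, and cells thinned to 5000 UMIs were scored for phase with the 43 S and 54 G2/M genes of Seurat. Per pathway list, the 2 genes with the highest and the 2 with the lowest EC-like ratio are named, and the 5 other genes most like the group. Promoters are RefSeq windows of GRCm38.p6 and positions are from the GENCODE annotation of GRCm38. The alternatives were doublet removal, no integration, classes from marker counts, at least 1000 genes per cell, mitochondrial UMIs under 5%, edgeR 4.0.16 TMM factors, median-ratio scaling, means over cells, thinning, female-like cells, G1 cells, and other UMI and fold limits. Leaving out the cell with the most Chac1 UMIs was chosen after seeing the data. The members and lists were chosen with earlier results of these data known.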

Additional observations from a re-analysis of the deposited data

Results flagged for a closer look

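The log2 ratios of 5 enzymes had intervals on opposite sides of 0 in different cell classes, and each difference between classes was not tested, because there was 1 library per genotype. Asns was at -0.55 in neuron-like and -1.72 in mesothelium-like cells against 1.17 in myeloid-like cells, where G1 cells gave -0.79. Its interval was also above 0 in EC-like (0.82), muscle-like (0.89), mesenchyme-like (0.93) and cardiomyocyte-like cells (1.01). Thinning gave -0.0032 in EC-like cells. Psat1, the second enzyme of serine synthesis, was at -1.89 in epithelium-like, -1.24 in mesothelium-like, -0.26 in mesenchyme-like and -0.59 in branchial muscle-like cells. Against these it was at 0.59 in neuron-like and 0.26 in myeloid-like cells. The mesenchyme-like ratio was 0.56 without integration, and the myeloid-like one -0.050 in female-like cells. Psph was at -0.44 in EC-like cells, where thinning gave 0.27, and at -1.23 in mesothelium-like cells. Against these it was at 0.53 in myeloid-like and 0.44 in branchial muscle-like cells. Phgdh was at -0.60 in neuron-like, -0.22 in epithelium-like and -1.32 in mesothelium-like cells against 0.86 in EC-like cells. Its interval was also above 0 in myeloid-like (0.75), mesenchyme-like (0.30) and muscle-like cells (0.19). The neuron-like ratio was 0.26 without integration, and the epithelium-like one 0.19 in female-like cells. Mthfd2 was at -0.98 in mesothelium-like against 1.80 in cardiomyocyte-like cells, and its interval was above 0 in every class but the mesothelium-like one. In G1 cells its ratio was 0.12 in mesothelium-like and -0.48 in myeloid-like cells.

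None of the 4 regulators Atf4, Ddit3, Trib3 and Chac1 had an interval wholly below 0 in any of the 8 classes. However, Trib3 was under 50 UMIs in neuron-like, myeloid-like, cardiomyocyte-like and mesothelium-like cells, and Chac1 in cardiomyocyte-like and mesothelium-like cells. Counts there are too few to tell whether these genes were lower.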

How the results depend on the processing

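No paired analysis was possible because each genotype has 1 library. Each reported class median was given a band. The band runs from the median lower bound to the median upper bound of the counting intervals of the genes with enough UMIs. It is therefore not a counting interval of the median itself. Of 87 alternative values of the class medians, 73 stayed within the band, 13 lay outside it in the same direction and 1 turned. The causes were not tested. In female-like cells the medians were 0.38 in EC-like, 0.31 in branchial muscle-like, 0.19 in mesenchyme-like and 0.20 in epithelium-like cells. Each rested on 8 genes with enough UMIs, where the reported medians rest on 10. In EC-like cells 3 of these 8 were past 1.5-fold upward, against 7 of 10. How much of the change came from the genes that dropped out was not tested. In G1 cells the medians were 1.35 in EC-like, 1.02 in muscle-like, 0.63 in mesenchyme-like and 0.82 in epithelium-like cells, over 10, 9, 8 and 9 genes. In mesothelium-like cells the G1 median was 0.23 over 5 genes, where the reported median rests on 8, and the direction turned. Thinning gave 0.78 over 8 genes in muscle-like and -1.78 over only 3 genes in mesothelium-like cells. Means over cells gave 0.81 in muscle-like and 0.79 in epithelium-like cells, and clustering without integration 0.62 over 9 genes in mesenchyme-like cells. TMM factors added 0.15 to every log2 ratio in cardiomyocyte-like cells, 0.11 in EC-like and neuron-like cells and -0.11 in mesothelium-like cells, and the median-ratio scaling added 0.10 in EC-like cells.

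Of 853 alternative values for single genes, 709 stayed within the interval and 23 turned. In EC-like cells these were Asns (-0.0032 thinned) and Psph (0.27 thinned, 0.048 in G1). In mesenchyme-like cells they were Atf4 (-0.11) and Mthfd2 (-0.047) in female-like cells and Psat1 (0.56 without integration, 0.074 thinned, 0.18 in G1). Phgdh turned in neuron-like cells (0.26 without integration, 0.0030 by marker counts) and in epithelium-like cells (0.19 female-like, 0.0080 in G1). In myeloid-like cells Atf4 turned by marker counts (-0.099), with at least 1000 genes (-0.098) and in G1 (-0.0076), Chac1 (-0.10) and Psat1 (-0.050) in female-like cells, and Asns (-0.79) and Mthfd2 (-0.48) in G1. Female-like cardiomyocyte-like cells, of which there were 11 and 12, gave -1.04 for Ddit3, -2.04 for Asns and -0.036 for Shmt2. Mthfd2 in mesothelium-like G1 cells was at 0.12. Depth limits Trib3 and Chac1 in control cells, at 42 and 67 UMIs in all.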
